A study of Mus musculus with 2 samples.

Results

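The genes described here take up or clear the transmitters glutamate, GABA and glycine: Slc1a2, Slc1a3, Glul, Slc6a9, Slc6a11 and Slc7a10. They were found by gene symbol and make up 6 of the 32285 genes counted in single-cell RNA-seq of mouse spinal cord. Whole cords at postnatal day 4 were dissociated, and 1 library was made for each of 2 groups on the FVB strain. The library labelled SMA came from mice of the severe Taiwanese model of spinal muscular atrophy, labelled mSmn-/-, hSMN22tg/0: both mouse Smn alleles were disrupted and the human SMN2 transgene was carried. The library labelled Con came from mSmn+/-, hSMN22tg/0 animals of the litter, which kept an intact mouse allele and carried the same transgene, so neither group was wild type. Per the study's methods, 3 littermates were pooled into each library. With 1 library per group no test between groups was possible, and every interval given covers counting error only.

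Neurons release glutamate, GABA or glycine at synapses, and nearby astrocytes take these transmitters up again, which ends the signal and protects neurons from overexcitation. Slc1a2 and Slc1a3 encode the main glial glutamate transporters, and Glul encodes glutamine synthetase, which turns the glutamate taken up into glutamine. Slc6a11 encodes a GABA transporter, Slc6a9 a glycine transporter, and Slc7a10 an exchanger of small neutral amino acids such as glycine and serine. In the spinal cord, where glycine is a major inhibitory transmitter, these genes are known to be active in astrocytes, and glutamine synthetase is also found in other glia and in vessel cells.

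All 6 are protein-coding genes of GRCm38 (GENCODE M21). Slc1a2 (ENSMUSG00000005089) lies on chromosome 2 from 102658659 to 102790784 on the plus strand. Slc1a3 (ENSMUSG00000005360) lies on chromosome 15 from 8634124 to 8710764 on the minus strand. Glul (ENSMUSG00000026473) lies on chromosome 1 from 153899944 to 153909723 on the plus strand. The genes are on 6 different chromosomes, so none share a promoter. Slc6a9 (ENSMUSG00000028542) lies on chromosome 4 from 117834506 to 117875198, Slc6a11 (ENSMUSG00000030307) on chromosome 6 from 114131241 to 114249952, and Slc7a10 (ENSMUSG00000030495) on chromosome 7 from 35186385 to 35201114, all on the plus strand.

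Promoter sequence is shown for Slc6a11 and Slc7a10, the members whose levels were most alike across cells, and for Glul, the member least tied to astrocytes. Each line gives the 120 bases before the RefSeq start (GRCm38.p6, plus strand, 5′ to 3′), with GC boxes (GGGCGG or CCGCCC) and CCAAT boxes (CCAAT or ATTGG) in capitals. The windows are chr6:114131121-114131240, chr7:35186265-35186384 and chr1:153899809-153899928.
Slc6a11: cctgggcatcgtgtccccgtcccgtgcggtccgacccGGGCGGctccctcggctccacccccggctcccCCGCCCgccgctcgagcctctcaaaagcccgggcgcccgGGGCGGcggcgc
Slc7a10: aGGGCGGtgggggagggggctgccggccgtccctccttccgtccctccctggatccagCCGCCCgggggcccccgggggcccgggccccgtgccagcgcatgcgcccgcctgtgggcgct
Glul: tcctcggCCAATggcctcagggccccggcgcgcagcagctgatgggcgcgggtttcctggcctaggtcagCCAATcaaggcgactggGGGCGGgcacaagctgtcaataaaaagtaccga
Over the 250 bases before the start, the Slc6a11 window held 3 GC boxes and no CCAAT box, and the Slc7a10 window 2 GC boxes and no CCAAT box. The Glul window held 1 GC box and 2 CCAAT boxes. Of all 32851 RefSeq windows of this length, 32.7% held a GC box and 33.8% a CCAAT box. G and C made up 71.2% of the Slc6a11 window and 69.6% of the Slc7a10 window, against a median of 52.4% over all windows. The Glul window was also GC-rich, at 64.8%. All 3 windows shown thus held at least 1 GC box and lay above that median, as a description of these letters alone. The Slc1a3 window held 1 GC box and 3 CCAAT boxes at 44.8% G and C, below the median. RefSeq gave 3 starts for Slc6a9, and its start for Slc1a2 lay 47779 bases inside the GENCODE gene, so those windows are not shown.

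The deposited tables listed 26921 barcodes for SMA and 25419 for Con, with 85872075 and 97894084 UMIs (unique molecular identifiers, each tagging 1 captured RNA molecule). The libraries shared 8163 barcodes. Of the Con barcodes with at least 5000 UMIs, 99.0% were also listed for SMA, against 2.78% of such SMA barcodes in Con, so the shared barcodes were left out of the SMA library. After the study's limits on genes and mitochondrial share and the removal of clustered cells rich in ribosomal-protein RNA (1337 from Con and 0 from SMA), 6787 SMA and 8919 Con cells remained. Their median UMI counts were 6109 and 6229. Smn1, the targeted gene, was not lower in SMA: in astrocyte-like cells it had 365 UMIs in SMA and 455 in Con (log2 ratio of levels 0.01, 95% interval -0.19 to 0.22). The labels do not say which part of Smn1 is disrupted, so 3′ counts may not check them, and the libraries are named here by their labels. Haemoglobin RNA made up 8.45% of the kept UMIs in SMA and 15.2% in Con.

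Cells were clustered without the 6 genes and without the other genes of the pathway, and clusters were named from marker lists. The level of a gene in a class is its UMIs over all UMIs of the class's cells, scaled to counts per 1e6 UMIs (CPM). The cells called astrocyte-like, 1273 in SMA and 1545 in Con, carried the defining astrocyte markers: Aqp4, the water channel of astrocyte endfeet, was at 1744 and 2307 CPM and Aldoc, a glycolytic enzyme high in astrocytes, at 3569 and 2776. All 14 markers of the class had at least 100 UMIs there. In 11 classes both libraries held at least 50 cells. Neuron-like cells numbered 41 and 26, too few for comparison, so uptake in neurons is not described.

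Both glutamate transporters were highest in astrocyte-like cells. Slc1a2 was at 926 CPM in SMA (95% interval 905 to 947) and 803 in Con (786 to 820), and these cells held 72.2% and 73.8% of all Slc1a2 UMIs. The next class, oligodendrocyte progenitor (OPC)-like cells, was at 117 and 110.5. Mural-like cells were at 92.5 and 57.2 and ependymal-like cells at 90.3 and 82.0. Slc1a2 was thus largely a gene of the astrocyte class. Slc1a3 was at 1144 (1121 to 1167) and 1218 (1197 to 1239) in astrocyte-like cells, which held 63.7% and 70.4% of its UMIs. Its next levels were in fibroblast-like cells, at 520 and 309, and in ependymal-like cells, which line the central canal, at 446 and 441. OPC-like cells followed at 174.5 and 171. Slc1a3 therefore reached further outside astrocytes than Slc1a2, with 85.6% of ependymal-like cells in SMA and 84.6% in Con holding a UMI.

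Glul was the least confined. Astrocyte-like cells were at 935 CPM in SMA (914 to 956) and 741 in Con (725 to 758), but held only 45.3% and 43.9% of its UMIs. Microglia-like cells were at 610 and 613 and held a further 28.4% and 22.9%, and a Glul UMI was found in 94.4% and 95.2% of them. Endothelial-like cells were at 379 and 404, with intervals of 355 to 404 and 384 to 426 that overlapped. In the other 8 classes Glul was highest in fibroblast-like cells, at 404 in SMA and 202 in Con, and lowest in erythroid-like cells, at 42.5 in Con.

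With the settings used here, the carriers of inhibitory transmitters and of small neutral amino acids were the most concentrated. Slc6a11 was at 1292 CPM in SMA (1268 to 1317) and 1336 in Con (1314 to 1358) in astrocyte-like cells, which held 82.1% and 81.6% of its UMIs. Slc7a10 was at 888 (868 to 909) and 1008 (988 to 1027), with 83.6% and 81.8% of its UMIs in the class. Slc6a9 was at 228 (218 to 239) and 210 (202 to 219), with 76.8% and 75.0%. Under the alternatives run the Slc6a9 share in Con was as low as 67.3%, and the Slc1a3 share in Con as high as 77.4%. Among the other 10 compared classes the highest Slc6a11 levels were 121 in ependymal-like cells of SMA and 98.5 in oligodendrocyte-like cells of Con, and for Slc7a10 65.3 in mural-like cells of SMA and 71.5 in oligodendrocyte-like cells of Con. Slc6a9 was at most 37.7 in SMA, in fibroblast-like cells, and 29.3 in Con, in oligodendrocyte-like cells.

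**Figure D1:**
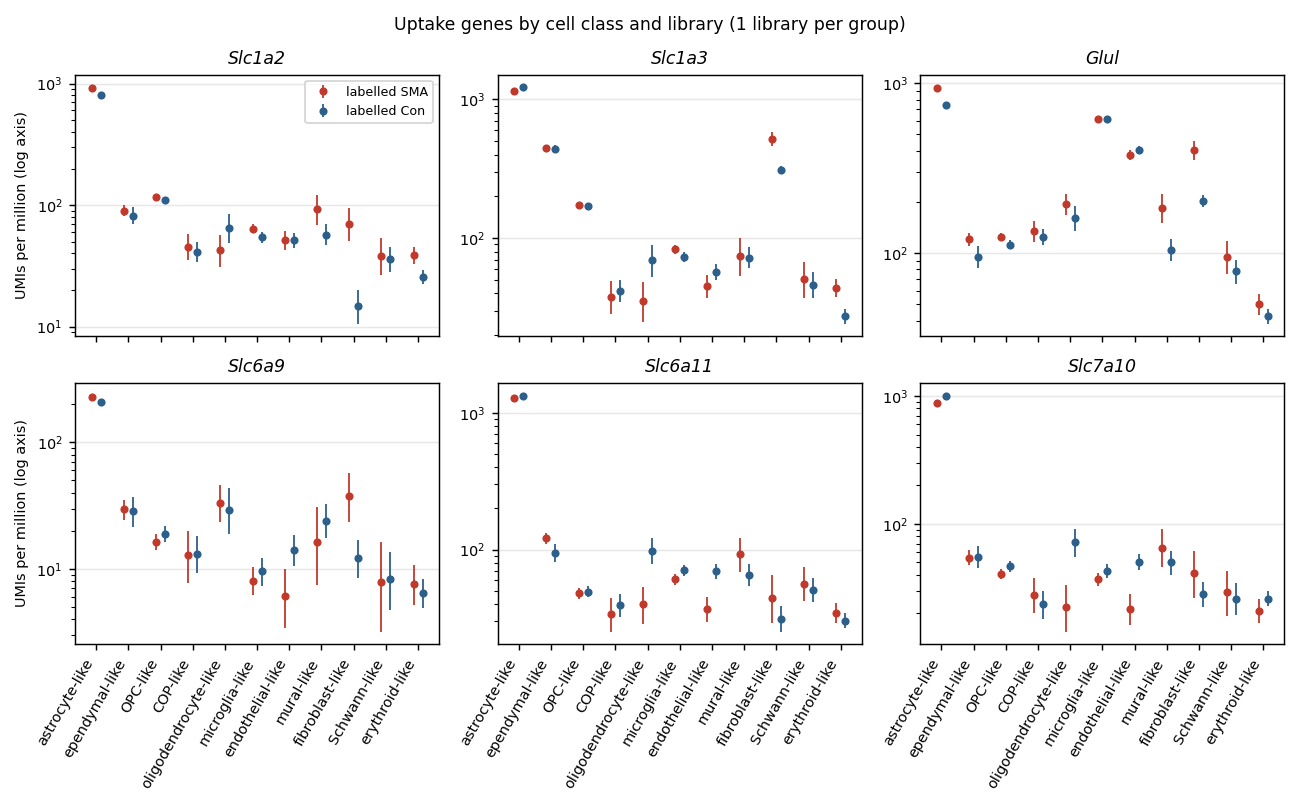
Level of each uptake gene (CPM, log axis) in the 11 cell classes, with the libraries labelled SMA in red and Con in blue and bars for the 95% Poisson interval. Astrocyte-like cells were highest for every gene, with Glul also high in microglia-like (610 and 613) and endothelial-like cells and Slc1a3 in ependymal-like and fibroblast-like cells.

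Counts in red blood cells were taken as the background of free RNA for all but Slc6a9, since developing red cells are known to use its glycine transporter. In the erythroid-like clusters with at least 80% haemoglobin UMIs (376 SMA and 884 Con cells, median 9617 and 9588 UMIs), Slc6a11 was found at 0.191 and 0.238 UMIs per cell and in 16.5% and 17.1% of cells. Astrocyte-like cells held 8.43 and 9.03 Slc6a11 UMIs per cell, 44.0 and 38.0 times that background. In the 9 other non-erythroid classes Slc6a11 was only 1.24 to 4.08 times the background in SMA and 0.610 to 2.64 times in Con, and Slc7a10 1.56 to 3.81 and 0.615 to 1.95 times. Counting astrocyte-like cells, each of the 2 genes was above the erythroid interval in 8 of 10 classes in SMA and 7 of 10 in Con. Outside astrocytes the levels were so near that background that they are not read as expression by those cells. At least 7 times the background in both libraries, outside astrocytes, were Slc1a3 in ependymal-like cells (40.2 and 28.7 times), fibroblast-like cells (67.2 and 14.1 times) and OPC-like cells (14.2 and 10.1 times), and Glul in microglia-like cells (12.3 times in both libraries) and endothelial-like cells (7.82 and 8.99 times). Glul in fibroblast-like cells (10.3 and 2.54 times) and Slc1a3 in microglia-like cells (8.51 and 5.34 times) were above 7 times in SMA alone. These multiples are per cell and were not adjusted for depth. Of the Slc1a3 UMIs of microglia-like cells, 330 of 660 in SMA and 228 of 483 in Con came from 1 cluster. That cluster held 124 and 105 cells, with 14.1% haemoglobin UMIs. In the largest microglia-like cluster Slc1a3 was at 47.1 and 46.2 CPM. The fibroblast-like cells of Con included 433 of a cluster with 2 SMA cells. In the cluster both libraries held, Slc1a3 had 304 UMIs in 61 SMA cells and 832 in 168 Con cells. Slc1a2 in OPC-like cells was at 3.92 and 4.35 times its background, within the SMA range of Slc6a11 and above its Con range. It was found in 46.35% and 46.56% of OPC-like cells, against 15.7% and 12.2% of the erythroid-like cells used as background. Whether OPC-like cells express it was not tested. Erythroid-like cells also included 186 cells with 40.1% haemoglobin UMIs, Dll1 among their leading genes, which were left out of this background.

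In single astrocyte-like cells thinned to 1000 UMIs, 69.3% in SMA and 70.9% in Con held a Slc6a11 UMI, 65.7% and 66.8% a Slc1a3 UMI, and 20.7% and 19.7% a Slc6a9 UMI. Without thinning, at median depths of 5988 and 6152 UMIs, Slc6a11 was found in 98.3% and 97.4% of the cells. At the thinned depth a cell held on average 3.27 of the 6 genes in SMA and 3.20 in Con, and 2.36% and 2.78% of cells held none. Among cells with Slc7a10, 74.9% and 76.2% also held Slc6a11, against 61.9% and 63.5% of cells without it. Not every pair went together: in SMA, Glul was found in 56.0% of cells with Slc1a2 and 56.8% of cells without it. In Con these shares were 52.8% and 48.8%.

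The closest genes by pattern were sought over the 25 clusters with at least 50 cells in each library, among 11246 genes with at least 500 UMIs. The measure was Pearson's r of log2(CPM + 10), averaged over the libraries. Slc7a10 was most like Cldn10 (r = 0.991), a claudin used as a marker of the class, then Slc6a11 (0.983) and Acsbg1 (0.976). Slc6a11 had the same neighbours, Cldn10 (0.985), Slc7a10 (0.983) and Acsbg1 (0.980). Slc6a9 was most like Slc7a10 (0.967), Cldn10 (0.966) and Adora2b (0.964), so the 3 carriers of GABA, glycine and small amino acids had nearly the same distribution over clusters. Slc1a2 was most like Fgfr3 (0.968), Tlcd1 (0.965) and Ncan (0.963). Slc1a3 was most like Dclk1 (0.942), Sox9 (0.930), a transcription factor of glial cells, and Vcam1 (0.919). Glul was most like Cst3 (0.927), a secreted protease inhibitor, Apoe (0.906), a lipid carrier, and Selenop (0.906). Clusters within a library share depth and free RNA, and many belong to the same class.

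Between the libraries the uptake genes differed little in astrocyte-like cells. None of the 6 passed 1.5-fold in either direction, the size used in place of a call, while 4.80% of the 10113 genes tested in the class did, each with 100 UMIs or more over both libraries. Glul had the highest ratio of the 6, at 935 against 741 CPM (log2 ratio 0.34, 95% interval 0.29 to 0.38), a 1.26-fold difference, and 94.3% of tested genes had a lower ratio. Slc1a2 was at 926 against 803 (0.21, 0.16 to 0.25), and Slc6a9 at 228 against 210 (0.12, 0.03 to 0.21). These 3 were higher in SMA with intervals above 0, but for Slc6a9 the ratio was 0.02 with the sub-cluster makeup of Con given to both libraries and 0.028 without cells holding markers of another class. Slc7a10 was lower in SMA, at 888 against 1008 (-0.18, -0.23 to -0.14), and Slc1a3 slightly lower, at 1144 against 1218 (-0.09, -0.13 to -0.05). Under 12 alternatives the Slc7a10 ratio lay between -0.40 and -0.10 and the Slc1a3 ratio between -0.14 and -0.02. Slc6a11 was at 1292 against 1336 (-0.05, -0.08 to -0.01), but turned to 0.02 when ratios were centred on the median gene of the class, and was also above 0 at an upper limit of 6000 genes per cell. The median log2 ratio of the 6 genes was 0.03, against -0.07 for all genes tested in the class. How much such ratios vary between animals or libraries of 1 group is not known here, so differences of this size cannot be told apart from differences between pools. Haemoglobin RNA, a sign of free RNA, was 0.215% of UMIs in the SMA and 0.678% in the Con astrocyte-like cells, and its part in these ratios was not tested.

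The other genes of the pathway came from a list of 43. In astrocyte-like cells 27 of them were counted often enough to be tested, of which 1 was past 1.5-fold lower in SMA and 0 higher, beside 4.80% of all tested genes past it in either direction. Their median log2 ratio was -0.14, against -0.07 for all genes tested. The gene that passed was Slc1a1, a glutamate transporter best known from neurons, with 42 UMIs in SMA and 80 in Con (log2 ratio -0.60, -1.17 to -0.04). Its interval was wide and it was the least counted of the genes past the minimum. Among its relatives Slc1a4, a carrier of neutral amino acids, was highest, at 75.7 and 74.3 CPM (0.03). Of the carriers of glutamine and cystine, Slc3a2, the shared heavy chain, was highest, at 661 and 859 (-0.38, -0.43 to -0.33).

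For the enzymes only the highest genes of their groups are given. Glud1, glutamate dehydrogenase, led its group at 975 and 903 CPM (log2 ratio 0.11). Phgdh, the first enzyme of serine synthesis, led the glycine and serine genes at 687 and 764 (-0.15). The vesicular transporters, which load synaptic vesicles in neurons, were nearly absent, and the highest of them, Slc32a1, had 1 UMI in SMA and 5 in Con in the whole class. Slc6a5, the neuronal glycine transporter, Slc1a7 and Slc6a12 had 0 UMIs in both libraries, which allows up to 0.361 CPM in SMA and 0.287 in Con.

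**Figure D2:**
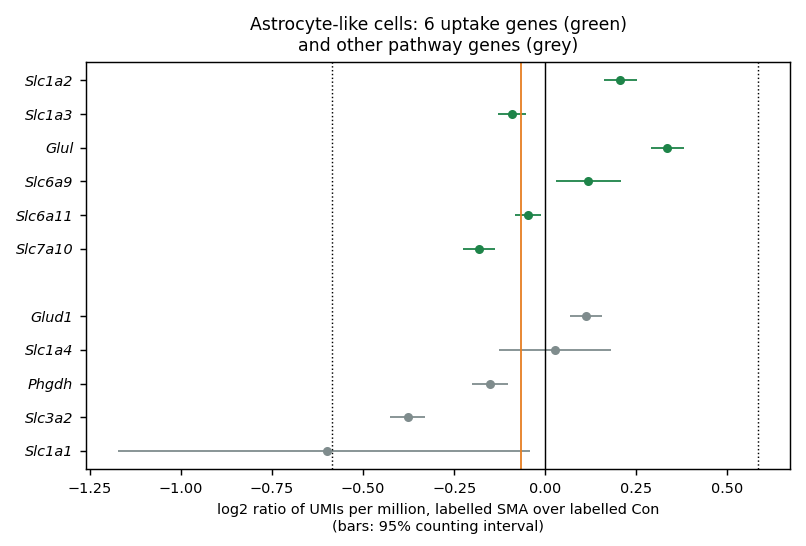
Log2 ratio of CPM in astrocyte-like cells, SMA over Con, for the 6 uptake genes (green) and the 5 other pathway genes named with a ratio in the text (grey), with bars for the 95% counting interval, dotted lines at 1.5-fold and an orange line at the median of all genes (-0.07). The uptake genes lie between -0.18 (Slc7a10) and 0.34 (Glul), inside the dotted lines.

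In the classes outside astrocytes 49 pairs of gene and class reached 100 UMIs, and 10 of these were past 1.5-fold. None were in ependymal-like, OPC-like, committed progenitor (COP)-like, microglia-like or Schwann-like cells, where 4.47%, 3.25%, 4.41%, 4.46% and 10.7% of all tested genes were past it. Among the signals above background in those classes, Slc1a3 in ependymal-like cells differed by a log2 ratio of 0.02 (-0.10 to 0.14), and Glul in microglia-like cells by -0.01 (-0.07 to 0.06). The 10 pairs came from endothelial-like, mural-like, fibroblast-like, oligodendrocyte-like and erythroid-like cells, 2 from each.

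In endothelial-like cells, where 9.49% of genes were past the fold, Slc6a11 had 91 UMIs in 328 SMA cells and 250 in 439 Con cells (log2 ratio -0.91, -1.28 to -0.56), and was inside 1.5-fold at a limit of 6000 genes (-0.54). Slc7a10 had 53 and 181 UMIs (-1.23, -1.70 to -0.78). Both were low per cell: Slc7a10 held 0.162 UMIs per cell in SMA and 0.412 in Con, 1.56 and 1.93 times the erythroid value of the same library. Glul, which these cells do hold, was at 379 and 404 CPM (-0.09, -0.21 to 0.03). In mural-like cells, the contractile cells of vessels, 11.7% of genes were past the fold. Glul was at 183 against 104 CPM (0.81, 0.45 to 1.17) and Slc1a2 at 92.5 against 57.2 (0.69, 0.18 to 1.19), both higher in SMA on 91 and 260 cells. Slc1a2 was inside 1.5-fold with shared barcodes kept (0.54) and with cells weighted equally (0.51). Both were near the background per cell: Glul was 3.05 and 1.94 times the erythroid value of the same library, and Slc1a2 3.19 and 2.57 times.

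In fibroblast-like cells 35.6% of genes were past the fold, and the class was made up differently in the libraries. A cluster led by Timp1, Mfap5 and Col3a1 held 2 cells from SMA and 433 from Con, and the other cluster, led by Mfap4, Igf2 and Dcn, 61 and 168. The median depth was 8577 UMIs in SMA and 3469 in Con. Glul (404 against 202 CPM, log2 ratio 1.00) and Slc1a3 (520 against 309, 0.75) were past the fold over the whole class. Within the cluster that both libraries shared, Slc1a3 was at 534 and 580 CPM, and Glul at 409 and 218. Without the Con-rich cluster the log2 ratio of Slc1a3 turned to -0.12, so its difference over the class rested on that cluster. Among cells with at least 5000 UMIs the Slc1a3 ratio was 0.22, and at a limit of 6000 genes 0.50. Its highest value under the alternatives run was 1.57. In the Con-rich cluster itself Slc1a3 was at 21.4.

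In oligodendrocyte-like cells 6.81% of genes were past the fold and the libraries differed in depth, with a median of 12068 UMIs in 102 SMA cells and 3117 in 146 Con cells. Slc6a11 (43 and 84 UMIs, log2 ratio -1.31, -1.87 to -0.76) and Slc1a2 (46 and 55 UMIs, -0.60, -1.20 to -0.01) were past the fold. Neither held throughout: with an upper limit of 6000 genes per cell in place of 4000, the Slc6a11 ratio was 0.085 and the Slc1a2 ratio -0.02. With the ribosome-rich cells kept, the Slc6a11 ratio was -0.44. The Slc1a2 ratio was also inside 1.5-fold with cells weighted equally (-0.16), at resolution 2 (-0.21), with shared barcodes kept (-0.30), with the ribosome-rich cells kept (-0.31) and at a mitochondrial limit of 20% (-0.55). Per cell, Slc1a2 was at 0.451 UMIs in SMA and 0.377 in Con. In erythroid-like cells 26.0% of genes were past the fold, and the median log2 ratio of all tested genes was 0.39. Slc1a3 (0.68) and Slc1a2 (0.60) were higher in SMA. Of the Slc1a3 UMIs, 152 of 179 in SMA and 157 of 247 in Con came from the 186 cells with 40.1% haemoglobin UMIs. In the other erythroid-like cells Slc1a3 was at 0.0718 UMIs per cell in SMA and 0.102 in Con, and Slc1a2 at 0.176 and 0.153. The Slc1a2 ratio was as low as 0.10 under the alternatives run. The Slc1a3 ratio lay between -0.016 and -0.0010 under 3 of the other ways of choosing cells. The part of depth in these ratios was not tested.

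Among astrocyte-like cells the uptake genes also differed between sub-clusters. These cells were clustered again without the 6 genes and the pathway list, which gave 12 sub-clusters, described here by their leading genes. Sub-cluster 7 (38 SMA and 110 Con cells) was led by Aplnr, Cxcl10, Cidea and Hspb1 and had the most Gfap, the intermediate filament gene of fibrous and reactive astrocytes, at 7550 CPM in SMA and 8723 in Con. It held 2.99% of the SMA and 7.12% of the Con astrocyte-like cells.

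In sub-cluster 7 the carriers of GABA, glycine and small amino acids were far lower than in other astrocyte-like cells, and the glutamate transporters less so. Slc7a10 was at 77.6 CPM in SMA and 57.8 in Con, against 926 and 1124 in the other astrocyte-like cells, so it was 11.9 and 19.4 times lower. Slc6a9 was at 37.5 and 21.9 against 237 and 233, or 6.33 and 10.7 times lower. Slc6a11 was at 254 and 225 against 1341 and 1472, or 5.27 and 6.54 times lower. All 3 were lower in both libraries, with log2 intervals for Slc7a10 of -4.16 to -3.05 and -4.65 to -3.93. Glul was at 246 and 157 against 967 and 813, 3.93 and 5.19 times lower. Slc1a3 was at 594 and 553 against 1169 and 1299, 1.97 and 2.35 times lower. Slc1a2 differed least, at 613 and 564 against 941 and 832, 1.53 and 1.48 times lower. Gja1, the astrocyte gap-junction gene, was 1.42 and 1.70 times lower in these cells, and Aqp4 was 2.38 and 1.96 times higher.

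The other sub-clusters also differed in these genes, and Slc1a2 was lowest in sub-cluster 8, at 595 CPM in SMA and 457 in Con. Sub-cluster 4, led by Igfbp5 and Tagln and with Gfap at 2011 CPM over both libraries, had Slc7a10 at 416 in SMA and 517 in Con but Slc6a11 at 1190 and 1279. Sub-cluster 3, led by Gpr37, Hpgd and Kdelr3, had the highest Slc7a10, at 1439 and 1864, and the highest Slc6a11, at 1704 and 1931. Slc7a10 thus covered the widest range of the 6 genes over sub-clusters of at least 20 cells, 18.5-fold in SMA and 32.2-fold in Con, and Slc1a2 the narrowest, 1.93-fold and 2.29-fold, although without sub-cluster 7 the range of Slc1a3 in SMA was 1.90-fold. With sub-cluster 7 set aside, the range of Slc7a10 was 5.12-fold and 5.20-fold, and that of Slc6a11 2.23-fold and 2.36-fold.

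The cycling astrocyte-like cells formed a pair of sub-clusters that differed most in Slc7a10. Sub-cluster 6, led by Pclaf, Rrm2 and Top2a, genes of DNA replication and mitosis, had Slc7a10 at 816 and 1085 CPM. Sub-cluster 9, led by Cenpf, Cenpa and Ccnb1, genes of mitosis, had it at 281 and 359. Slc1a3 was at 1183 and 1222 in sub-cluster 6 and at 868 and 1077 in sub-cluster 9. Sub-clusters 8, 10 and 11 were led by genes of progenitors (Matn4, Pdgfra), microglia (C1qa, Tyrobp) and red cells with oligodendrocytes (Hbb-bs, Cldn11), and whether they hold doublets was not tested.

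Sub-cluster 12 was almost entirely from SMA, with 44 cells against 1 from Con. Its leading genes, Gdf15, Bbc3, Phlda3 and Cdkn1a, are known targets of the p53 response. Glul was at 1129 CPM there (995 to 1276), Slc1a2 at 936 (814 to 1070), Slc6a11 at 1076 (946 to 1220) and Slc7a10 at 707 (602 to 826). These uptake genes were thus still present in the SMA cells with p53-target RNA, within the range of the other SMA sub-clusters.

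**Figure D3:**
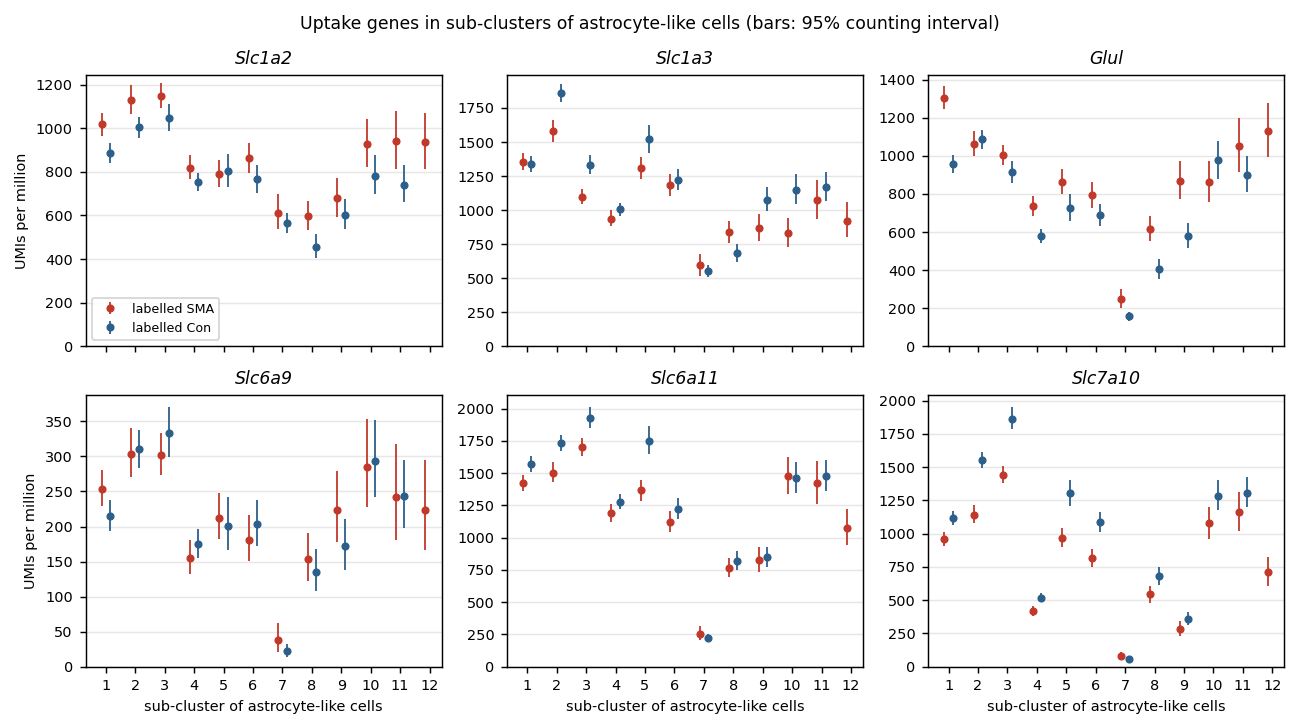
Level of each uptake gene (CPM, linear axis from 0) in the 12 sub-clusters of astrocyte-like cells, with SMA in red, Con in blue and bars for the 95% Poisson interval, for groups of at least 20 cells. Slc7a10, Slc6a11, Slc6a9 and Glul are lowest in sub-cluster 7 in both libraries, and Slc1a2 varies least.

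The libraries were also set side by side within sub-clusters, 11 of which held at least 20 cells of each. Slc7a10 was lower in SMA in 10 of the 11, with the exception of sub-cluster 7, and Glul was higher in SMA in 9. Slc1a2 was higher in SMA in 10, Slc6a11 lower in 9 and Slc1a3 lower in 8. Slc6a9 was higher in 5 and lower in 6. Glul was past 1.5-fold in 3 of the 11, with its highest log2 ratio, 0.65, in sub-cluster 7. Slc6a9 was past it in 1, sub-cluster 7 (0.78), on 14 UMIs in SMA and 25 in Con. The other genes were past it in 0. Sub-clusters of 1 library share its preparation and are not replicates. When both libraries were given the sub-cluster makeup of Con, the log2 ratio of Slc7a10 went from -0.18 to -0.34, that of Glul from 0.34 to 0.25, that of Slc6a9 from 0.12 to 0.02 and that of Slc6a11 from -0.05 to -0.14.

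Astrocyte-like cells were also banded by Gfap alone, after thinning each cell to 1000 UMIs. In Con, Slc7a10 was at 1256 CPM in 1021 cells with 0 Gfap UMIs, at 925 in 344 cells with 1 to 2, at 280 in 139 cells with 3 to 9 and at 46.8 in 41 cells with 10 or more. In SMA it was at 1012, 904, 488 and 110, over 668, 447, 149 and 9 cells. Slc7a10 was therefore lower in each band with more Gfap in both libraries, 26.9-fold in Con and 9.21-fold in SMA from end to end. Slc6a11 differed by 7.39-fold in Con and 3.43-fold in SMA between the end bands, Glul by 5.73-fold and 4.48-fold, and Slc6a9 by 14.6-fold and 3.68-fold. Slc1a3 differed by 2.72-fold and 1.64-fold, and Slc1a2 by only 1.40-fold and 1.31-fold.

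Cells with more Gfap were also deeper, with a median of 5663 UMIs in the lowest and 11374 in the highest band of Con, and of 5808 and 11025 in SMA. Counted per cell, Slc7a10 was still lower in the highest band, at 7.72 and 0.512 UMIs in Con and 6.30 and 1.22 in SMA. Slc1a2 was not, at 5.21 and 6.61 UMIs per cell in Con and 6.03 and 8.22 in SMA. Whether the greater depth reflects more RNA in these cells or better capture was not tested. The top SMA band rests on 9 cells.

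**Figure D4:**
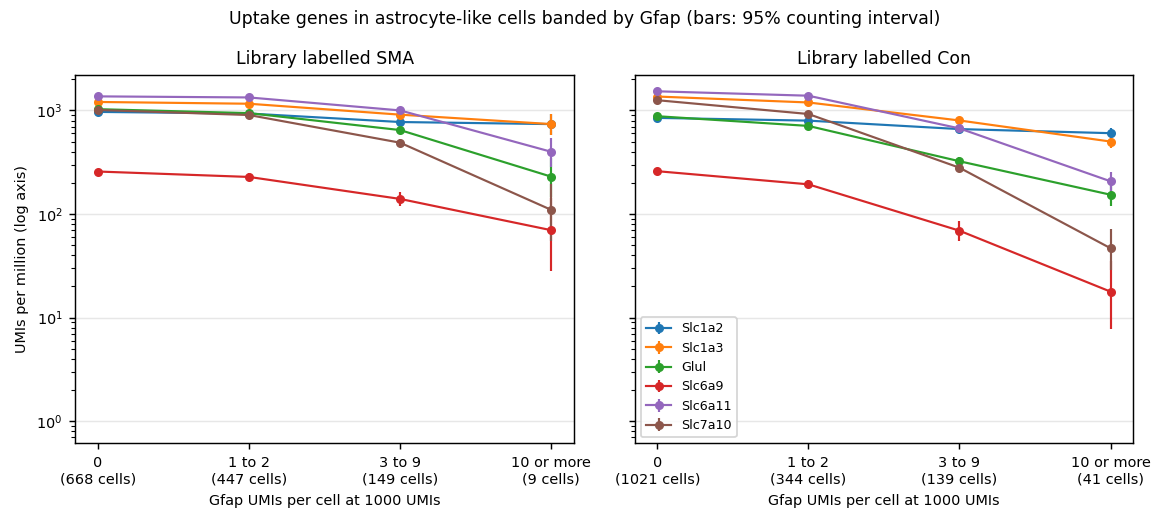
Level of the 6 uptake genes (CPM, log axis, bars for the 95% Poisson interval) in astrocyte-like cells grouped by Gfap UMIs at 1000 UMIs per cell, for SMA (left) and Con (right). Slc7a10 lies at 1256 in the lowest and 46.8 in the highest band of Con and at 1012 and 110 in SMA, while Slc1a2 stays within 1.40-fold and 1.31-fold.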

How the data were processed

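The authors dissociated whole spinal cords and made 10x Genomics 3′ libraries (version 3 chemistry). The deposited tables hold raw UMI counts per gene and barcode, made with Cell Ranger (version 4.0.0 per the file headers, another than the methods give) on mm10; the submitters' notes also name Seurat 3.2.2. The 6 genes and all lists were chosen with earlier results of these data known.

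SMA barcodes also listed for Con were left out (13296 SMA cells passed the other limits with them kept, 6787 without). Barcodes with 200 to 4000 genes and under 10% mitochondrial UMIs were kept, and the 4000-gene limit was the only step against doublets. Log-normalised counts of 2000 variable genes gave 30 components, 20 neighbours and Louvain clusters at resolution 1 (igraph 0.11.9, scikit-learn 1.9.0, Python 3.11.15), without the 6 genes, the pathway list, Smn1, X-inactivation genes and mitochondrial or ribosomal genes. Clusters took a class name from at least 3 detected markers. A low-depth microglial cluster with none of its class's markers among its 10 leading genes, a cluster with a close second class, and an erythroid cluster under 30% haemoglobin UMIs stayed unnamed, the last 2 limits being set after the clusters were seen, and names rebuilt this way may differ from the study's. Unnamed cells made up 6.45% of SMA and 13.1% of Con.

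UMIs were summed per class and library. Intervals were exact: Poisson for levels, conditional binomial for ratios, Clopper-Pearson for shares, at 95%. A ratio past 1.5-fold with at least 100 UMIs stood in place of a call. A count of 0 was given the limit of 3 counts. The ratio code was tested on simulated counts. Named were all 6 genes in the compared classes, pathway genes past 1.5-fold, the highest gene of each list (some are not reported here), the 3 most alike genes of each member, and Smn1. Sub-clusters, Gfap bands, the erythroid background and leading genes were described after their values were seen. Promoters came from RefSeq (GRCm38.p6), which matched all 6 genes. No column was left out.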

Additional observations from a re-analysis of the deposited data

How the results depend on the processing

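The number of uptake genes past 1.5-fold in astrocyte-like cells was 0 under all 15 alternatives run. Among these, the larger fold of 2 and the changed minimums of UMIs could not raise this count. The median log2 ratio of the 6 genes, 0.03, moved under 3 of 14: to 0.10 when centred on the class median gene, to -0.049 when cells with 3 or more marker genes of another class were left out, and to -0.053 with the sub-cluster makeup of Con given to both libraries, the last chosen after seeing the data. The second of these removed 56.6% of SMA and 77.3% of Con astrocyte-like cells. Of 72 single ratios in this class 70 kept their sign, Slc6a11 being the exception. Outside astrocytes the count of 10 past 1.5-fold went to 16 with the mitochondrial limit at 20%, to 5 (of 29 pairs then tested) with a minimum of 300 UMIs, to 2 at a fold of 2, and to 1 (of 10 pairs left) without cells holding other markers. Slc1a3 in erythroid-like cells (0.68) reversed to -0.0028 with shared barcodes kept, to -0.0010 with the mitochondrial limit at 20% and to -0.016 with the 6000-gene limit, which also moved Slc6a11 in oligodendrocyte-like cells from -1.31 to 0.085. Without the erythroid-like cluster of 40.1% haemoglobin UMIs, Slc1a3 was lower in SMA, at 0.0718 UMIs per cell against 0.102 in Con. Slc1a3 in fibroblast-like cells (0.75) reversed to -0.12 without the cluster held almost wholly by Con. A stricter minimum, a larger fold and fewer cells lower the count by construction, and the cause was not tested for the rest. No paired analysis was possible because each group had 1 library. With 1 library per group, the spread between animals is unknown, and counts under 100 UMIs limit the classes with few cells.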
